A study of Zea mays with 4 samples.

Results

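DEF2-low aleurone cells were protoplasts of developing maize endosperm at 7 days after pollination (DAP) that carried a high level of AL9, an aleurone marker transcript, and little or no DEF2, a transcript annotated as defensin-like protein 2. They were read from droplet single-cell RNA sequencing, in which each transcript molecule is counted once by its unique molecular identifier (UMI). Barcodes entered as cells when they carried 3000 UMIs or more, between 500 and 7500 genes, and a logarithm of genes that was no less than 0.8 of the logarithm of UMIs. DEF2-low cells had AL9 at 4% of their UMIs or more, DEF2 under 0.07%, and BETL9, BETL10, BETL3 and BAP2, 4 transcripts of the basal endosperm transfer layer (BETL), together under 1%. This rule gave 2234 cells, of which 683, 802 and 749 came from 7 DAP replicates 1, 2 and 3. They made up 22.4% of the 9960 cells kept at 7 DAP and 57.5% of the 3882 cells with AL9 at 4% or more. They were compared with 1565 DEF2-high cells, which had the same AL9 minimum and DEF2 at 0.07% or more, with 465, 593 and 507 cells in replicates 1, 2 and 3. The 83 cells left over (21, 32 and 30) failed the BETL limit.

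All cells came from wild-type plants of the inbred line B73 grown in a greenhouse per the labels, with no treatment, and the groups differ by measured transcripts alone. The study's reporting summary names Shang Zhuang in Beijing, in summer, as the place of growth and no greenhouse. The endosperm of many kernels was pooled for each library, so cells of a library share their source. The study calls the 7 DAP libraries biological replicates, but neither the labels nor its methods say whether they came from separate plants or ears. The p-values below set the difference between the groups within a library against how much such differences varied between these 3 libraries. The test used, edgeR, estimated this variation by sharing information over all genes fitted. A small p-value therefore does not rest on a gene's own 3 differences alone. Enzymatic release of protoplasts keeps no record of where in the kernel a cell lay.

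The aleurone is the outermost cell layer of the cereal endosperm. It stores lipid and minerals, stays alive and becomes tolerant of drying in the mature grain, and secretes hydrolytic enzymes at germination. At the ages sampled here the layer is still being set up, and its cells still divide as the endosperm surface expands. Defensins are small secreted cysteine-rich peptides, many of which act against fungi.

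The 7 DAP libraries held 26756925, 36740377 and 33751416 UMIs, and a library of 6 DAP held 8248575. Of 21654 deposited barcodes, 10569 passed the cell filters. Pairs of libraries shared 4 to 8 barcode sequences, at most 0.151% of the smaller library. Counts of the same cell group differed between libraries beyond sampling noise, with a chi-square per degree of freedom of 2.36 to 3.99, so no library was a copy of another. At 6 DAP only 24 kept cells had AL9 at 4% or more, and 23 of these were also under the DEF2 limit.

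The values that chose the cells are given here as a description only. AL9 took a median of 8.02%, 8.27% and 7.74% of the UMIs of DEF2-low cells, against 9.48%, 10.0% and 9.13% in DEF2-high cells. Summed over cells, DEF2 stood at 229, 231 and 233 CPM (the share of the sum's UMIs, scaled so that all genes add up to 1000000) in DEF2-low cells, against 1688, 1678 and 1805 CPM in DEF2-high cells. Of the DEF2-low cells, 244, 248 and 232 had no DEF2 UMI. The share with at least 1 DEF2 UMI was 64.3, 69.1 and 69.0%, against 21.9, 25.2 and 24.2% in cells with AL9 under 1%, at median depths of 6227, 7856.5 and 8092 UMIs against 5876, 6617 and 6439.5 UMIs. Thinned to 3000 UMIs per cell, it was 44.9, 46.4 and 45.3% in DEF2-low cells, against 13.8, 15.3 and 14.9% in cells with AL9 under 1%. The group was thus low in DEF2, not free of it, and its share lay well above that of cells with AL9 under 1%. DEF2-low cells made up 58.4% (95% exact interval 55.5 to 61.3), 56.2% (53.6 to 58.8) and 58.2% (55.5 to 61.0) of the AL9-rich cells of replicates 1, 2 and 3. These intervals, like all others below, cover counting error only.

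No gap in the distributions marked the limits. There were 136 cells with DEF2 between 0.06% and 0.07%, just inside the group, and 152 between 0.07% and 0.08%, just outside it. AL9 lay between 4% and 4.5% in 192 member cells, and 231 cells had 3.5% to 4% with the other limits met. The 4 BETL transcripts took 0.5% to 1% in 29 members and 1% to 1.5% in 33 cells outside. DEF2-low and DEF2-high are therefore ranges of a measured share, with many cells near the limit, and are not called cell types here. The 683, 802 and 749 DEF2-low cells held 1204, 1765 and 1738 DEF2 UMIs in all. Few UMIs of 1 gene thus decide on which side of the limit, or in which DEF2 bin below, a cell falls. How many cells were misplaced by sampling was not tested.

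Other aleurone markers were checked in the same sums. HB91, a homeodomain-leucine zipper transcription factor gene, had 43.8, 32.2 and 34.1 CPM in DEF2-low cells, against 39.8, 33.9 and 31.1 CPM in DEF2-high cells. OCL1, a homeodomain-leucine zipper gene of the outer cell layer, had 91.0, 95.2 and 96.2 CPM in DEF2-low cells, against 109.7, 98.2 and 94.3 CPM in DEF2-high cells. Cells with AL9 under 1% had 8.44, 10.7 and 10.2 CPM of HB91 and 47.2, 49.5 and 48.3 CPM of OCL1. Both markers were thus higher in DEF2-low cells than in cells with AL9 under 1%, in each library, and their ranges overlapped between DEF2-low and DEF2-high cells. OCL1 did not set DEF2-low cells apart from cells with AL9 of 1% to 4%. After thinning, an OCL1 UMI was present in 26.3, 24.6 and 23.1% of the latter, against 23.1, 25.9 and 23.6% of DEF2-low cells. For HB91 the shares were 7.91, 7.85 and 8.03%, against 11.7, 9.10 and 8.14% of DEF2-low cells. For both genes the exact intervals of these groups overlapped in each library. The log2 fold change of DEF2-low over DEF2-high was -0.0097 ± 0.092 (SE, edgeR adjusted p = 0.97) for HB91 and -0.15 ± 0.067 (SE, edgeR adjusted p = 0.15) for OCL1, and neither passed 0.05. SBT1, a subtilisin protease gene of the aleurone, had 633, 648 and 684 CPM in DEF2-low cells, against 865, 891 and 921 CPM in DEF2-high cells. VPP7, a vacuolar proton-pumping pyrophosphatase gene, had 282, 236 and 210.3 CPM in DEF2-low cells, against 284, 272 and 255 CPM in DEF2-high cells. SBT1 was lower in all 3 DEF2-low sums, at a log2 fold change of -0.51 ± 0.035 (SE, edgeR adjusted p = 2.7e-09). VPP7 was also lower, with a log2 fold change of -0.24 ± 0.051 (SE, edgeR adjusted p = 0.0029), although its ranges overlapped. The other aleurone marker searched for, Zm00001d024210, had 0 UMIs in the DEF2-low and DEF2-high sums of 20372376 and 12345944 UMIs, which allows up to 0.147 and 0.243 CPM. Apart from AL9, which is in the rule, 4 of the 5 aleurone markers were detected in DEF2-low cells, with SBT1 and VPP7 lower than in DEF2-high cells and HB91 and OCL1 without a call.

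Depth differed between the groups. The median UMIs per cell were 6227, 7856.5 and 8092 in DEF2-low cells, against 5438, 6970 and 7202 in DEF2-high cells. Median genes per cell were 2474, 2809.5 and 2840 in DEF2-low cells, against 2235, 2501 and 2602 in DEF2-high cells. With every cell thinned to 3000 UMIs, the difference shrank to 30, 38.5 and 14 genes, a mean of 27.5 ± 12.4 (SD, n = 3), higher in DEF2-low cells in 3 of 3 libraries. Without thinning the mean difference was 262 ± 40.4 genes (SD, n = 3). An exact test on 3 pairs cannot pass 0.05, so none was run. Plastid and mitochondrial transcripts took medians of 0.0411% to 0.0532% of UMIs in DEF2-low cells and 0.0418% to 0.0624% in DEF2-high cells.

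The question put to the whole transcriptome was which other genes separate AL9-rich cells with little DEF2 from those with more. UMIs were summed per library and group, and edgeR's quasi-likelihood test with the library as a block compared the 3 DEF2-low sums with the 3 DEF2-high sums. Of 15154 genes tested, leaving out the 6 genes of the rule, 1010 were higher in DEF2-low cells (6.66% of those tested) and 1014 were lower (6.69%). Most differences were small. The median log2 fold change was 0.34 among the higher genes and -0.38 among the lower ones, while 113 higher and 63 lower genes passed 2-fold. DESeq2 with the same block called 340 higher and 359 lower, and without replicate 1 edgeR called 559 and 567. With library totals in place of TMM factors, 1679 genes were higher and 658 lower, so the split of calls depends on the scaling, and 71.8% of calls were then higher, against 49.9% with TMM factors. The higher genes included many of the cell division and protein synthesis lists. Those lower in DEF2-low cells included genes of the lists of drying tolerance, lipid bodies, metal binding, detoxification and fermentation. AL9 also differed between the groups, and with AL9 held between 4% and 8% of UMIs in both there were 606 higher and 658 lower genes. The lists below are described by counts, to be read beside these shares of 6.66% and 6.69% over all genes. Among genes with a mean of 50 CPM or more, 552 of 2755 were higher and 550 lower.

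**Figure D1:**
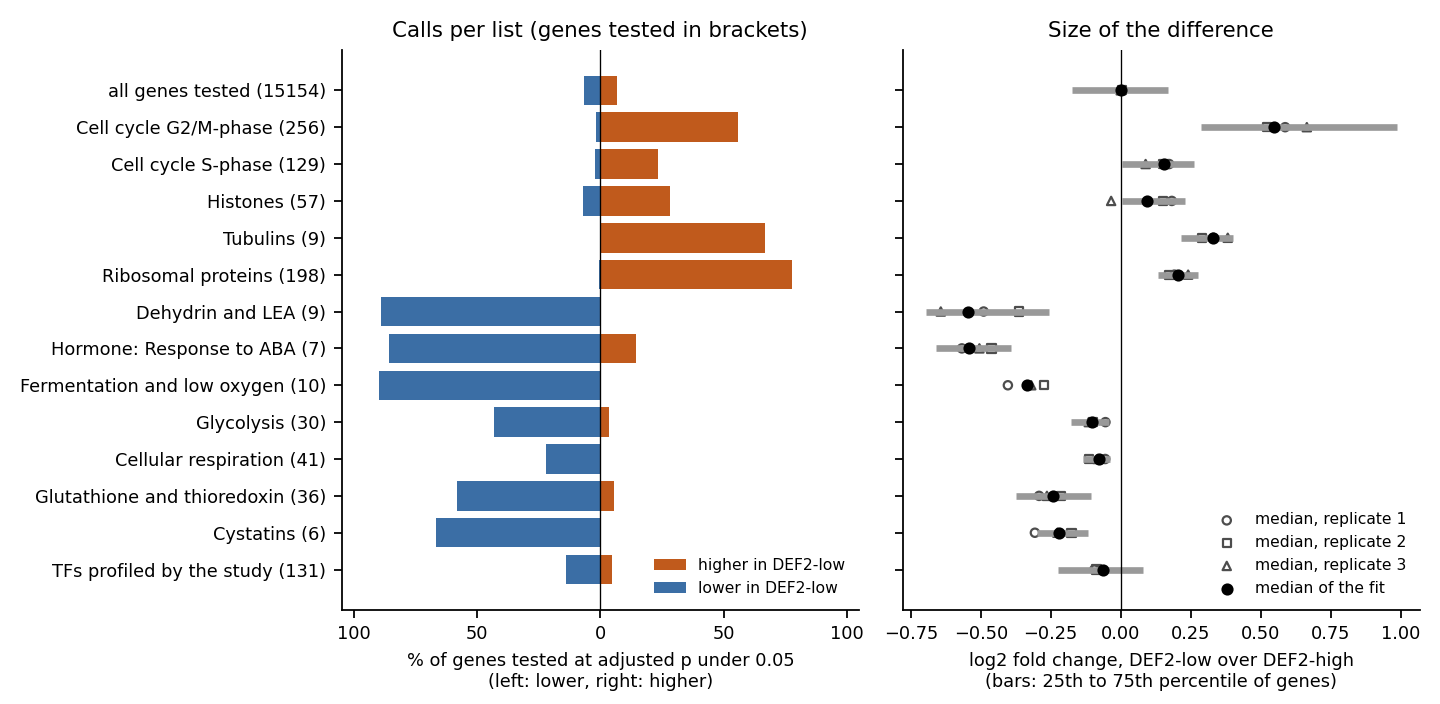
The left panel gives the percentage of tested genes of each list that were lower (bars to the left) or higher (bars to the right) in DEF2-low than in DEF2-high cells at an adjusted p under 0.05, with the number tested in brackets. The right panel gives the median log2 fold change of the fit (black), the medians of the 3 libraries (open symbols) and the range from the 25th to the 75th percentile of genes (grey). G2/M genes had the highest median of the lists drawn, 0.55, and dehydrins and LEA genes one of the lowest, -0.54, while the median over all genes was 0.0013.

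Genes of the G2 and M phases of the cell cycle, the phases that lead into and through mitosis, were higher in DEF2-low cells. Of 256 genes tested from the study's G2/M list, 143 were higher and 4 lower, with a median log2 fold change of 0.55, beside 6.66% higher and 6.69% lower and a median of 0.0013 over all genes. Among the 28 of these genes with a mean of at least 50 CPM, 18 were higher and 3 lower, against 552 higher and 550 lower of 2755 genes at that level. Zm00001d043413, a member of the list with no annotation in the sources used here, had 521, 544 and 672 CPM in DEF2-low cells, against 206, 214 and 215 CPM in DEF2-high cells. Every DEF2-low sum was more than every DEF2-high sum, and the log2 fold change was 1.38 ± 0.054 (SE, edgeR adjusted p = 4.4e-13). Zm00001d012714 had 166, 167 and 225 CPM in DEF2-low cells, against 61.8, 53.7 and 72.6 CPM in DEF2-high cells, a log2 fold change of 1.51 ± 0.063 (SE, edgeR adjusted p = 1.5e-12). For Zm00001d040390 the values were 144, 159 and 169 CPM in DEF2-low cells, against 55.4, 63.6 and 52.3 CPM in DEF2-high cells, a log2 fold change of 1.39 ± 0.074 (SE, edgeR adjusted p = 7.7e-11). The 3 genes were higher in 3 of 3 libraries, with no overlap between the groups, as were the DEF2-low sums of 17.4% of all genes tested.

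Genes with better known roles in division moved the same way. Zm00001d032565 encodes a homolog of EB1C, a protein that binds the growing ends of microtubules, and had 88.6, 96.6 and 90.3 CPM in DEF2-low cells, against 48.2, 53.1 and 44.3 CPM in DEF2-high cells. Its log2 fold change was 0.85 ± 0.073 (SE, edgeR adjusted p = 7.2e-08), and that of Zm00001d002115, a homolog of EB1B, was 0.71 ± 0.072 (SE, edgeR adjusted p = 8.0e-07). Centromeric histone H3 (Zm00001d038533), the histone that marks the site of kinetochore assembly, had 87.4, 82.1 and 80.4 CPM in DEF2-low cells, against 51.1, 49.6 and 53.7 CPM in DEF2-high cells, a log2 fold change of 0.62 ± 0.073 (SE, edgeR adjusted p = 4.6e-06). Several genes of lower level were singled out after their values were seen. Zm00001d010656, annotated as Cyclin1, had 13.7, 11.8 and 13.8 CPM in DEF2-low cells, against 3.24, 4.88 and 4.38 CPM in DEF2-high cells. A homolog of KNOLLE (Zm00001d013323), which in Arabidopsis is the syntaxin of the forming cell plate, had 6.67, 8.89 and 10.4 CPM in DEF2-low cells, against 3.56, 2.24 and 3.00 CPM in DEF2-high cells. Zm00001d008260, a homolog of ubiquitin-conjugating enzyme E2 20, had 18.5, 25.5 and 22.6 CPM in DEF2-low cells, against 6.47, 6.30 and 5.99 CPM in DEF2-high cells. Their log2 fold changes were 1.53 ± 0.20 (SE, edgeR adjusted p = 1.7e-05), 1.56 ± 0.25 (SE, edgeR adjusted p = 1.4e-04) and 1.79 ± 0.16 (SE, edgeR adjusted p = 9.7e-08), each higher in 3 of 3 libraries with no overlap.

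The UMIs of these genes were unevenly spread over the cells of both groups. The 10% of DEF2-low cells richest in the gene held 71.8%, 70.2% and 70.0% of the group's Zm00001d043413 UMIs in replicates 1, 2 and 3, and the richest 10% of DEF2-high cells held 69.5%, 74.5% and 80.1%. With each cell thinned to 3000 UMIs, a UMI of Zm00001d043413 was present in 39.2, 40.02 and 41.1% of DEF2-low cells, against 25.8, 24.96 and 24.5% of DEF2-high cells. For Zm00001d012714 the shares were 18.7, 18.8 and 21.5% of DEF2-low cells, against 10.5, 7.59 and 8.28% of DEF2-high cells. For Zm00001d040390 they were 21.2, 20.6 and 22.2%, against 11.2, 12.6 and 8.48%. Without thinning, Zm00001d043413 was present in 51.7, 54.7 and 54.2% of DEF2-low cells, against 37.2, 39.0 and 38.1% of DEF2-high cells. More cells with AL9 under 1% carried it, 58.3, 61.0 and 60.0% after thinning, so no cell group here lacks the gene and gives a background for it. The exact 95% intervals of DEF2-low and DEF2-high cells did not overlap in any library for these 3 genes. The genes were named for the size of their difference between these same cells, and cells of a library are not replicates. The shares are therefore a description and add no separate evidence.

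**Figure D2:**
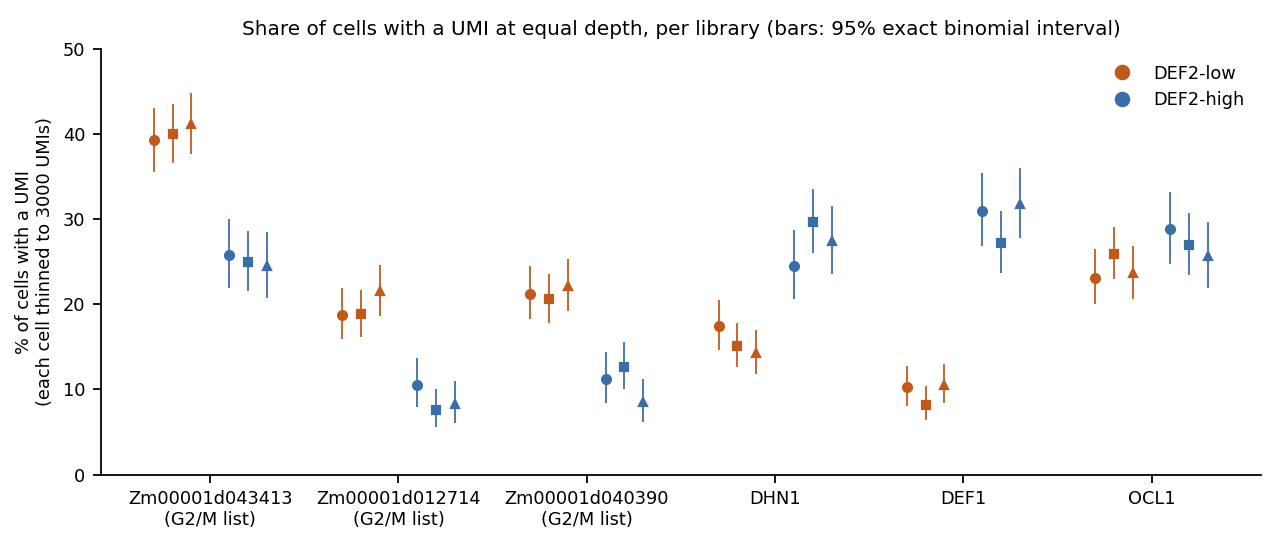
Each point is the percentage of cells of 1 library with at least 1 UMI of the gene after thinning to 3000 UMIs (circle, square and triangle for replicates 1, 2 and 3), with its 95% exact binomial interval. DEF2-low cells are left of DEF2-high cells for each gene. The 3 G2/M genes were found in more DEF2-low cells, DHN1 and DEF1 in fewer, and the intervals of OCL1 overlapped in each library.

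The summed share of the whole G2/M list differed less, at 2.14, 2.08 and 2.06% of UMIs in DEF2-low cells, against 2.02, 1.92 and 1.88% in DEF2-high cells. The median cell was nearly alike, at 1.89%, 1.82% and 1.81% in DEF2-low cells, against 1.94%, 1.75% and 1.69% in DEF2-high cells. At the 99th percentile of cells the shares were 5.56%, 5.65% and 6.42% in DEF2-low cells, against 4.44%, 4.47% and 4.26% in DEF2-high cells. The upper end of the distribution was thus higher in DEF2-low cells in each library, whereas replicate 1 had the lower median in DEF2-low cells. The list also holds abundant genes with roles outside division. Its members that were lower include GPC4, a glyceraldehyde-3-phosphate dehydrogenase gene of glycolysis, with a log2 fold change of -0.15 ± 0.030 (SE), and Zm00001d022421, with -0.34 ± 0.021 (SE), both singled out after their values were seen.

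Genes of DNA replication and chromatin showed a smaller difference. Of 129 genes tested from the S-phase list, 30 were higher and 3 lower, with a median log2 fold change of 0.16. At a mean of 50 CPM or more, 26 of 62 were higher and 2 lower, against 552 and 550 of 2755 genes at that level. MET2, a DNA methyltransferase gene, had 77.5, 70.7 and 74.4 CPM in DEF2-low cells, against 44.4, 48.6 and 45.0 CPM in DEF2-high cells. It was higher in every DEF2-low sum, at 0.61 ± 0.078 (SE, edgeR adjusted p = 1.4e-05). HMG9, which encodes a high mobility group B protein that binds DNA, had 76.2, 72.7 and 72.2 CPM in DEF2-low cells, against 39.2, 42.5 and 39.0 CPM in DEF2-high cells, a log2 fold change of 0.80 ± 0.078 (SE, edgeR adjusted p = 5.0e-07). HMG13, another high mobility group B gene, had a log2 fold change of 0.43 ± 0.055 (SE, edgeR adjusted p = 1.4e-05). PCNA1, singled out after its values were seen, encodes the sliding clamp of DNA polymerase and had 116, 91.1 and 97.3 CPM in DEF2-low cells, against 93.9, 69.9 and 70.5 CPM in DEF2-high cells. Its ranges overlapped, since the DEF2-high sum of replicate 1 exceeded 1 DEF2-low sum, and the log2 fold change within the block was 0.32 ± 0.065 (SE, edgeR adjusted p = 0.0019). Histone genes were mixed, with 16 of 57 higher and 4 lower and a median of 0.095. At a mean of 50 CPM or more, 15 of 52 were higher and 4 lower, against 552 and 550 of 2755 genes at that level. The histone list took 2.31, 2.26 and 2.30% of UMIs in DEF2-low cells, against 2.05, 1.99 and 2.32% in DEF2-high cells, and in replicate 3 the order was the other way round. With AL9 held between 4% and 8% in both groups, the S-phase median was 0.048 and the histone median was -0.052.

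Most of the tubulin genes tested were higher in DEF2-low cells. Of 9 tubulin genes tested, 6 were higher and 0 lower, with a median log2 fold change of 0.33. At a mean of 50 CPM or more, 6 of 7 were higher, against 552 of 2755 genes at that level. TUB1, a beta tubulin gene, had 113, 108 and 102 CPM in DEF2-low cells, against 68.0, 68.5 and 56.7 CPM in DEF2-high cells. All 3 DEF2-low sums were above all DEF2-high sums, at 0.68 ± 0.068 (SE, edgeR adjusted p = 7.4e-07). TUB6 and TUBB6, annotated as beta tubulins, were higher by 0.54 ± 0.065 (SE, edgeR adjusted p = 5.8e-06) and 0.40 ± 0.081 (SE, edgeR adjusted p = 0.0018). How reads were divided between tubulin copies of similar sequence was not examined. Zm00001d010434, a homolog of arabinogalactan peptide 20, a class of cell wall glycoproteins, had 217, 244 and 259 CPM in DEF2-low cells, against 132, 126 and 106 CPM in DEF2-high cells, a log2 fold change of 0.93 ± 0.073 (SE, edgeR adjusted p = 2.2e-08). EXPB7, a beta-expansin gene whose protein family loosens cell walls, had 306, 302 and 352 CPM in DEF2-low cells, against 247, 188 and 175 CPM in DEF2-high cells, a log2 fold change of 0.60 ± 0.078 (SE, edgeR adjusted p = 1.6e-05). A GDSL esterase or lipase homolog, Zm00001d030707, was higher by 0.74 ± 0.11 (SE, edgeR adjusted p = 6.7e-05). Zm00001d002276, with no annotation in the sources used here, had 55.0, 80.3 and 73.7 CPM in DEF2-low cells, against 33.0, 56.7 and 10.6 CPM in DEF2-high cells, and its log2 fold change of 1.04 ± 0.21 (SE, edgeR adjusted p = 0.0021) came with overlapping groups.

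Ribosomal protein genes were higher as a body. Of 198 tested, 154 were higher in DEF2-low cells and 1 lower, with a median log2 fold change of 0.21. The exception was ARPP2B, singled out after its values were seen, at -0.30 ± 0.043 (SE, edgeR adjusted p = 5.8e-05). Together these genes took 12.3, 13.1 and 13.9% of UMIs in DEF2-low cells, against 10.5, 11.1 and 11.4% in DEF2-high cells. In contrast to the G2/M list, the median cell differed, with 11.4%, 12.1% and 12.4% in DEF2-low cells, against 9.48%, 10.5% and 10.7% in DEF2-high cells. Cells with less AL9 had higher medians still. These were 12.86%, 13.96% and 14.21% at AL9 of 1% to 4%, and 13.37%, 14.08% and 13.86% at AL9 under 1%. The DEF2-low median thus lay between those of DEF2-high cells and of cells with less AL9 in each library, a description with no test. Zm00001d042772, annotated as a ribosomal protein, had 648, 604 and 667 CPM in DEF2-low cells, against 421, 407 and 421 CPM in DEF2-high cells, a log2 fold change of 0.55 ± 0.039 (SE, edgeR adjusted p = 5.9e-09). Zm00001d047186, 40S protein S9, and Zm00001d032181, a homolog of 60S protein L34-3, were higher by 0.53 ± 0.054 (SE, edgeR adjusted p = 8.6e-07) and 0.43 ± 0.044 (SE, edgeR adjusted p = 8.0e-07).

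**Figure D3:**
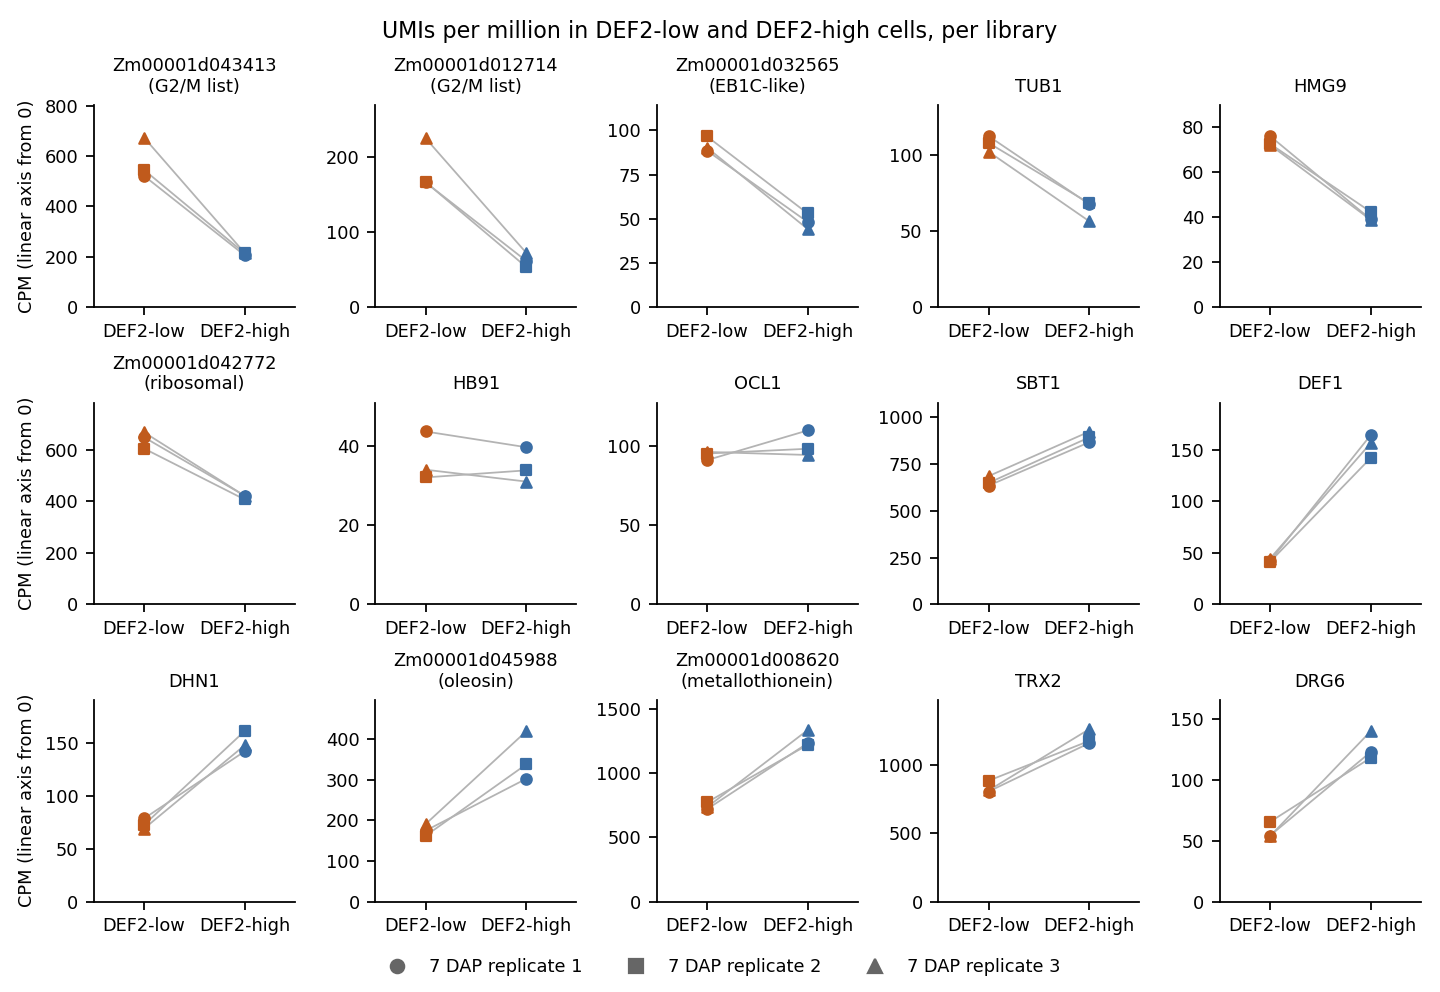
Each panel gives the CPM of 1 gene in the DEF2-low (left, orange) and DEF2-high (right, blue) sums of each library, on a linear axis from 0, with lines joining sums of the same library. The genes of the top row and the ribosomal protein gene were higher in all 3 DEF2-low sums, HB91 and OCL1 overlapped, and SBT1, DEF1, DHN1, the oleosin, the metallothionein, TRX2 and DRG6 were lower in all 3.

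Genes that accumulate as seeds acquire drying tolerance were lower in DEF2-low cells. Of 9 dehydrin and late embryogenesis abundant (LEA) genes tested, 0 were higher and 8 lower, with a median log2 fold change of -0.54. DHN1, a dehydrin, had 78.5, 72.4 and 68.9 CPM in DEF2-low cells, against 142, 161 and 148 CPM in DEF2-high cells. Every DEF2-low sum was below every DEF2-high sum, at -1.11 ± 0.066 (SE, edgeR adjusted p = 5.0e-10). Such separation below was found for 7.89% of all genes tested. Zm00001d043709, a group 3 LEA gene, had 212, 202 and 191 CPM in DEF2-low cells, against 323, 314 and 310.3 CPM in DEF2-high cells, a log2 fold change of -0.72 ± 0.045 (SE, edgeR adjusted p = 1.1e-09). DHN15, a homolog of dehydrin COR410, had a log2 fold change of -0.70 ± 0.090 (SE, edgeR adjusted p = 1.6e-05). After thinning, a DHN1 UMI was present in 17.4, 15.1 and 14.3% of DEF2-low cells, against 24.5, 29.7 and 27.4% of DEF2-high cells and 11.6, 10.9 and 10.5% of cells with AL9 under 1%. The DEF2-low share was above that of cells with AL9 under 1% in each library, but their exact intervals overlapped in replicates 2 and 3. The list as a whole took 0.175, 0.172 and 0.160% of UMIs in DEF2-low cells, against 0.227, 0.215 and 0.214% in DEF2-high cells.

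Oleosin genes were for the most part lower as well. Of 4 oleosin genes tested, which coat the lipid bodies of seeds, 0 were higher and 3 lower, and the exception was OLE3 at -0.095 ± 0.27 (SE, edgeR adjusted p = 0.87). Zm00001d045988, oleosin Zm-II, had 174, 162 and 190.4 CPM in DEF2-low cells, against 302, 337 and 418 CPM in DEF2-high cells. The DEF2-low values lay at close to the same level in the 3 libraries, all below the DEF2-high ones, at -1.07 ± 0.055 (SE, edgeR adjusted p = 5.2e-11). OBAP2A, a homolog of an oil body-associated protein, had 59.6, 61.6 and 68.4 CPM in DEF2-low cells, against 95.5, 115 and 121 CPM in DEF2-high cells, a log2 fold change of -0.88 ± 0.067 (SE, edgeR adjusted p = 1.5e-08). The following were singled out after their values were seen. OBAP2B, of the same family, was lower with a log2 fold change of -0.65 ± 0.071 (SE, edgeR adjusted p = 1.9e-06). Zm00001d048176, a vicilin-like seed storage protein homolog, had 119.6, 104.9 and 106 CPM in DEF2-low cells, against 188, 164 and 163 CPM in DEF2-high cells, at -0.71 ± 0.054 (SE, edgeR adjusted p = 1.4e-08). RAFS1, a homolog of a galactosyltransferase that makes raffinose sugars, had 37.3, 37.1 and 31.0 CPM in DEF2-low cells, against 67.3, 50.6 and 55.8 CPM in DEF2-high cells, and AMYB2, a beta amylase gene that acts on starch, had a log2 fold change of -1.02 ± 0.12 (SE, edgeR adjusted p = 3.8e-06).

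Metal-binding and redox genes followed the same direction. The 4 metallothionein genes tested, which encode small cysteine-rich metal-binding proteins, were lower, with a median of -0.77. Zm00001d008620, a homolog of metallothionein 2A, had 719, 772 and 735 CPM in DEF2-low cells, against 1232, 1219 and 1334 CPM in DEF2-high cells. The groups were far apart compared with the spread between libraries, at -0.83 ± 0.037 (SE, edgeR adjusted p = 3.1e-12). Of 36 glutathione and thioredoxin genes, 2 were higher and 21 lower, with a median of -0.24. At a mean of 50 CPM or more, 20 of 32 were lower, against 550 of 2755 genes at that level. TRX2, a thioredoxin, had 803, 882 and 811 CPM in DEF2-low cells, against 1156, 1172 and 1257 CPM in DEF2-high cells, a log2 fold change of -0.59 ± 0.037 (SE, edgeR adjusted p = 1.2e-09). The glutathione transferases GST7 and GST24 were lower, with log2 fold changes of -0.72 ± 0.073 (SE, edgeR adjusted p = 8.0e-07) and -0.63 ± 0.070 (SE, edgeR adjusted p = 2.2e-06). Of 6 cystatins, which inhibit cysteine proteases, 4 were lower and 0 higher. PSEI6 had 46.3, 43.8 and 43.5 CPM in DEF2-low cells, against 79.3, 62.2 and 73.1 CPM in DEF2-high cells, a log2 fold change of -0.74 ± 0.078 (SE, edgeR adjusted p = 1.1e-06).

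Defence peptide genes other than DEF2 were examined apart, since DEF2 chose the cells. DEF1, annotated as defensin-like protein 1, had 41.9, 41.2 and 44.3 CPM in DEF2-low cells, against 164, 142 and 156 CPM in DEF2-high cells. Its log2 fold change of -1.92 ± 0.066 (SE, edgeR adjusted p = 1.1e-13) was the lowest of the tested genes named here. DEF1 and DEF2 carry neighbouring identifiers and related annotations. How reads were divided between them was not examined, so the DEF1 difference cannot be told apart from the rule. Zm00001d019277, a homolog of defensin-like protein 6, had 6696, 7108 and 6921 CPM in DEF2-low cells, against 7742, 8067 and 7904 CPM in DEF2-high cells, a much smaller log2 fold change of -0.26 ± 0.022 (SE, edgeR adjusted p = 7.1e-08). DRG6, annotated as a pathogenesis-related protein, had 54.1, 65.4 and 53.7 CPM in DEF2-low cells, against 122.7, 118 and 139.7 CPM in DEF2-high cells, a log2 fold change of -1.20 ± 0.080 (SE, edgeR adjusted p = 2.2e-09). Zm00001d007967, with no annotation in the sources used here, had 14339.6, 15129.8 and 15642 CPM in DEF2-low cells, against 20268, 22143 and 21624 CPM in DEF2-high cells. The log2 fold change was -0.57 ± 0.021 (SE, edgeR adjusted p = 2.4e-13), with no overlap. It is on the study's list for aleurone cluster 3, most of whose called genes were higher.

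Further genes named for the size of their difference were all below in the 3 DEF2-low sums. Zm00001d006796, a homolog of dinucleotide-binding proteins with a Rossmann fold, had 74.3, 67.7 and 70.5 CPM in DEF2-low cells, against 112, 135 and 148 CPM in DEF2-high cells, a log2 fold change of -0.98 ± 0.076 (SE, edgeR adjusted p = 2.1e-08). Zm00001d025833 had 56.4, 56.1 and 58.2 CPM in DEF2-low cells, against 97.1, 95.5 and 111 CPM in DEF2-high cells, at -0.90 ± 0.067 (SE, edgeR adjusted p = 1.2e-08). Zm00001d024960 and Zm00001d043898, with no annotation in the sources used here, had log2 fold changes of -1.02 ± 0.14 (SE, edgeR adjusted p = 3.1e-05) and -0.84 ± 0.063 (SE, edgeR adjusted p = 1.2e-08). A ribonuclease homolog, Zm00001d032186, had 30.7, 45.0 and 38.9 CPM in DEF2-low cells, against 60.5, 65.3 and 70.1 CPM in DEF2-high cells. Its log2 fold change was -0.83 ± 0.086 (SE, edgeR adjusted p = 9.8e-07), and that of Zm00001d040613, annotated as a stress-inducible membrane pore protein, was -0.78 ± 0.068 (SE, edgeR adjusted p = 9.7e-08). LTPG1, a lipid transfer protein gene of the aleurone lists, had 404, 355 and 358 CPM in DEF2-low cells, against 559, 512 and 516 CPM in DEF2-high cells, at -0.58 ± 0.039 (SE, edgeR adjusted p = 3.1e-09). A cytochrome b5 gene, Zm00001d017425, had a log2 fold change of -0.77 ± 0.061 (SE, edgeR adjusted p = 2.5e-08).

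Most of the fermentation genes tested were lower in DEF2-low cells, as were a part of the glycolysis genes. Of 10 genes of fermentation and low oxygen tested, 0 were higher and 9 lower, with a median of -0.33. ADH1, alcohol dehydrogenase, which makes ethanol when oxygen is scarce, had 874, 833 and 716 CPM in DEF2-low cells, against 1118, 898 and 928 CPM in DEF2-high cells, a log2 fold change of -0.35 ± 0.042 (SE, edgeR adjusted p = 6.8e-06). The groups did not overlap, although the highest DEF2-low sum, of replicate 1, came close to the lowest DEF2-high sum. HB1, a plant hemoglobin gene, was lower, with a log2 fold change of -0.40 ± 0.072 (SE, edgeR adjusted p = 5.5e-04), as was Zm00001d017060, a homolog of a hypoxia-responsive protein, with -0.40 ± 0.044 (SE, edgeR adjusted p = 2.1e-06). Of 30 glycolysis genes, 1 was higher and 13 lower, with a median of -0.10. All 30 had a mean of 50 CPM or more, where 550 of 2755 genes were lower. HEX1, a hexokinase, had 77.7, 75.5 and 76.7 CPM in DEF2-low cells, against 97.4, 106 and 117 CPM in DEF2-high cells, a log2 fold change of -0.56 ± 0.067 (SE, edgeR adjusted p = 6.8e-06). Of 41 respiration genes, 0 were higher and 9 lower, with a median of -0.076. At a mean of 50 CPM or more, 9 of 40 respiration genes were lower, a share near that of all genes at that level (550 of 2755), and so no result about these genes. AOX2, an alternative oxidase of the mitochondrial electron transport chain, had a log2 fold change of -0.38 ± 0.067 (SE, edgeR adjusted p = 4.7e-04).

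Among hormone lists, abscisic acid (ABA) response and jasmonate synthesis held the most calls. Of 7 ABA response genes tested, 6 were lower and 1 higher, with a median of -0.54. The exception was RAB15, singled out after its values were seen, at 0.17 ± 0.035 (SE, edgeR adjusted p = 0.0019). AASR7, an abscisic acid stress ripening gene, had 76.6, 84.7 and 78.7 CPM in DEF2-low cells, against 112, 117 and 125 CPM in DEF2-high cells, a log2 fold change of -0.63 ± 0.063 (SE, edgeR adjusted p = 7.1e-07), and AASR5 had a log2 fold change of -0.35 ± 0.035 (SE, edgeR adjusted p = 7.0e-07). Of 28 jasmonate synthesis genes, 10 were lower and 0 higher, with a median of -0.30. AOC1, allene oxide cyclase, had 109, 103 and 107 CPM in DEF2-low cells, against 132, 159 and 151 CPM in DEF2-high cells, a log2 fold change of -0.55 ± 0.065 (SE, edgeR adjusted p = 5.5e-06). OPR1 and OPR2, oxophytodienoic acid reductases, were lower, with log2 fold changes of -0.40 ± 0.052 (SE, edgeR adjusted p = 1.7e-05) and -0.38 ± 0.042 (SE, edgeR adjusted p = 2.4e-06). Of 15 ethylene synthesis genes, 5 were lower and 0 higher, and of 21 jasmonate response genes 5 were lower and 0 higher. At a mean of 50 CPM or more, 3 of 4 and 2 of 6 of these were lower, against 550 of 2755 genes at that level. The ARF family of auxin response factors had 1 higher and 0 lower of 25, below the shares over all genes. The heat list had 3 higher and 3 lower of 36, and the calcium-binding list 0 higher and 3 lower of 17, where over all genes 6.66% were higher and 6.69% lower. The lipid transfer list had 2 higher and 2 lower of 7. All 7 had a mean of 50 CPM or more, where 552 of 2755 genes were higher and 550 lower. Of 9 protein phosphatase 2C genes 2 were lower and 0 higher, of 8 brassinosteroid response genes 2 were higher and 0 lower, and of 9 auxin synthesis genes 1 was higher and 2 lower. The other auxin, cytokinin, gibberellin, salicylic acid, ethylene and ABA lists had at most 10 tested genes and at most 2 calls each.

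More of the transcription factors examined were lower than higher in DEF2-low cells. Of 131 factors whose binding the study profiled, 6 were higher and 18 lower, with a median of -0.062 (0.0066 with library totals as scaling), and the study picked this list on these libraries. Among the 33 with a mean of at least 50 CPM, 0 were higher and 13 lower, against 552 higher and 550 lower of 2755 genes at that level. WRKY53 had 70.3, 66.4 and 59.5 CPM in DEF2-low cells, against 95.2, 96.6 and 92.0 CPM in DEF2-high cells, a log2 fold change of -0.61 ± 0.067 (SE, edgeR adjusted p = 2.2e-06). WRKY8 and EREB148, of the WRKY and ethylene response factor families, were lower, with log2 fold changes of -0.41 ± 0.063 (SE, edgeR adjusted p = 1.1e-04) and -0.42 ± 0.063 (SE, edgeR adjusted p = 8.4e-05). NKD2, one of the naked endosperm factors that maize needs for normal aleurone, had 11.05, 8.63 and 8.43 CPM in DEF2-low cells, against 5.83, 2.85 and 6.69 CPM in DEF2-high cells. Its log2 fold change was 0.82 ± 0.23 (SE, edgeR adjusted p = 0.018), at a level where the DEF2-high sums rest on few UMIs.

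Markers of other endosperm cell types were also found in the sums. Of 9 BETL markers outside the rule that were tested, 5 were higher and 0 lower, with a median of 0.75. They took 0.334, 0.461 and 0.320% of UMIs in DEF2-low cells, against 0.195, 0.291 and 0.0802% in DEF2-high cells and 4.32, 4.27 and 5.12% in cells with AL9 under 1%. Zm00001d052759, a lipid transfer protein gene, had 1333, 1531 and 1468 CPM in DEF2-low cells, against 646, 972 and 342 CPM in DEF2-high cells, and Zm00001d053785, a defensin-like BETL gene, had 1432, 2318 and 1303 CPM in DEF2-low cells, against 891, 1401 and 312 CPM in DEF2-high cells. The log2 fold changes were 1.17 ± 0.15 (SE, edgeR adjusted p = 9.1e-06) and 1.05 ± 0.15 (SE, edgeR adjusted p = 4.4e-05), and that of Zm00001d053108, another BETL marker, was 0.99 ± 0.17 (SE, edgeR adjusted p = 3.6e-04). MRP1, the MYB factor that activates BETL genes, had 2.48, 4.45 and 5.22 CPM in DEF2-low cells, against 2.91, 0.610 and 1.84 CPM in DEF2-high cells. It was 1 of the 5 called higher, although replicate 1 went the other way and the DEF2-high sums rest on few UMIs. SWEET4C, a sugar transporter of the BETL, had 71.2, 74.0 and 74.4 CPM in DEF2-low cells, against 80.3, 67.1 and 71.0 CPM in DEF2-high cells, with no call (log2 fold change -0.044 ± 0.073, SE), and MN1, the cell wall invertase, was too low to be tested. TCRR1, MEG1 and MEG3, 3 more BETL markers, were not called either. Markers of the embryo-surrounding region (ESR) were higher for 5 of 5 genes tested, with a median of 1.78, but the median of replicate 1 alone was -0.997. Without replicate 2, the log2 fold changes of ESR1 and ESR3 were -0.073 and -0.22.

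High shares of these transcripts were found in few cells. BETL markers outside the rule and ESR markers together exceeded 1% of UMIs in 171 DEF2-low cells (7.91%, 7.23% and 7.88%) and in 47 DEF2-high cells (3.44%, 4.05% and 1.38%). The median cell of both groups had 0.0133% to 0.0186% of its UMIs in the BETL markers and 0 in the ESR markers. MEG14, an ESR marker, had a log2 fold change of 2.55 ± 0.15 (SE, edgeR adjusted p = 5.0e-10). For this gene 10 DEF2-low cells held 89.1%, 96.6% and 83.9% of the group's UMIs. The 4 BETL genes of the rule were limited in DEF2-low cells but not in DEF2-high ones, of which 9 had 1% or more. When cells over 0.2% of UMIs in these markers were removed from both groups (250 DEF2-low and 84 DEF2-high cells), an alternative chosen after seeing the data, the BETL and ESR medians were -0.15 and -0.25. Then 1031 genes were higher and 1066 lower, 896 and 925 of them shared with the full groups, and the medians of the G2/M, ribosomal, dehydrin, metallothionein and fermentation lists kept their sign. The removal used the BETL and ESR markers themselves, so their own change is fixed by it and is no test of them.

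Starchy endosperm (SE) markers stayed low. They took 0.0385, 0.0344 and 0.0320% of UMIs in DEF2-low cells, against 0.0324, 0.0339 and 0.0315% in DEF2-high cells and 0.106, 0.104 and 0.0929% in cells with AL9 under 1%. Of 6 tested, 4 were higher and 1 lower. The 6 were FL3, TAR1, DE18, O11, PDK1 and NKD2, the factor named above, which was 1 of the 4 higher. At a mean of 50 CPM or more, 0 of 2 were higher and 1 lower, so the 4 higher genes were all of low level. DE18, an auxin synthesis gene of the endosperm, had 12.8, 9.55 and 10.4 CPM in DEF2-low cells, against 4.86, 7.32 and 5.53 CPM in DEF2-high cells, a log2 fold change of 0.75 ± 0.20 (SE, edgeR adjusted p = 0.016). O11, an endosperm transcription factor gene, had 7.43, 8.24 and 9.23 CPM in DEF2-low cells, against 4.21, 5.08 and 5.53 CPM in DEF2-high cells, a log2 fold change of 0.67 ± 0.20 (SE, edgeR adjusted p = 0.03). FL3, which encodes a protein of starchy endosperm, had 28.0, 26.0 and 17.9 CPM in DEF2-low cells, against 18.1, 16.1 and 17.3 CPM in DEF2-high cells, and 436, 439 and 408 CPM in cells with AL9 under 1%. PDK1 went the other way at -0.51 ± 0.081 (SE, edgeR adjusted p = 1.7e-04). ZP27 and SH2, storage and starch genes of the later endosperm, and the EAS and nucellus markers were too low to be tested. The part of other cells' transcripts in the results above was not tested beyond the removal of marker-rich cells.

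Within the AL9-rich cells, several of these genes varied along the DEF2 share and not at the limit alone. Cells with under 1% of BETL genes were placed in 5 bins by DEF2, of which the first 3 hold the DEF2-low cells, with 190 to 326 cells per bin and library. Zm00001d043413 had 719, 866 and 1053 CPM in cells with no DEF2 UMI, 494, 485 and 612 CPM up to 0.035%, 361, 368 and 446 CPM up to 0.07%, 241, 254 and 262 CPM up to 0.14% and 162, 142 and 167 CPM above. The level was lower in each step in all 3 libraries, within the DEF2-low cells as well as beyond them. Zm00001d012714 had 283, 259.8 and 367 CPM at no DEF2 and 111, 113 and 133 CPM between 0.035% and 0.07%. The oleosin Zm00001d045988 had 100.9, 97.0 and 101.2 CPM at no DEF2, 252, 212 and 226 CPM between 0.035% and 0.07%, and 413, 393 and 481 CPM at 0.14% or more. DHN1 had 65.9, 37.0 and 36.6 CPM at no DEF2, 88.8, 103 and 103 CPM between 0.035% and 0.07%, and 153, 211 and 168 CPM at 0.14% or more. DEF2-low cells were therefore not uniform, and those with some DEF2 lay between cells with none and DEF2-high cells for these genes. TUB1 had 116, 128 and 109.8 CPM at no DEF2, 109, 95.3 and 88.3 CPM between 0.035% and 0.07% and 57.1, 55.4 and 49.5 CPM at 0.14% or more, lower in each bin in all 3 libraries. DEF1 had 25.7, 10.7 and 16.7 CPM at no DEF2 and 205, 208 and 195 CPM at 0.14% or more.

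HB91 and the ribosomal genes took a different course. HB91 had 52.1, 28.4 and 29.6 CPM at no DEF2 and 32.0, 31.2 and 34.2 CPM at 0.14% or more, with no steady order between. Ribosomal genes took 11.8%, 13.2% and 13.97% of UMIs at no DEF2, 13.1%, 13.6% and 14.2% up to 0.035%, and 9.86%, 10.4% and 10.6% at 0.14% or more, so the highest share was not in the cells with no DEF2 UMI. Cells with no DEF2 UMI were shallow, with median UMIs of 4978, 6204 and 6622, against 7670, 9338 and 9400 in cells with DEF2 up to 0.035%. Cells with DEF2 at 0.14% or more were about as shallow, with medians of 5358, 5968 and 6573 UMIs. Depth thus differed between bins, lowest at both ends, and its part in the levels was not tested by bin. With each cell thinned to 3000 UMIs before the sums, 380 genes were higher and 437 lower of 11942 tested, and 358 and 415 of them were also called at full depth.

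**Figure D4:**
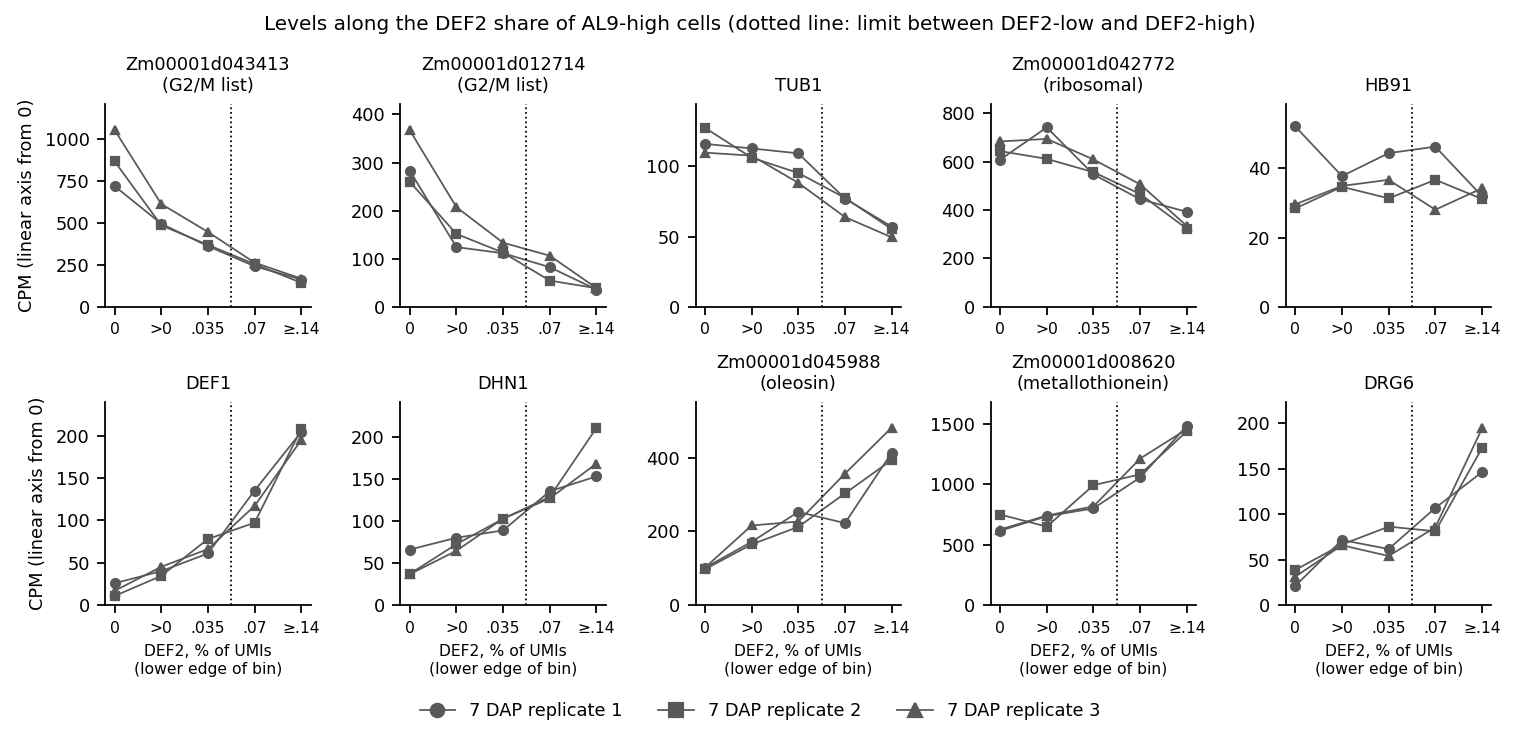
CPM of 10 genes in 5 bins of the DEF2 share of AL9-rich cells at 7 DAP, from no DEF2 UMI to 0.14% or more, on linear axes from 0. Each line is 1 library, and the dotted line is the limit between DEF2-low and DEF2-high cells. The G2/M genes were highest at no DEF2 in each library, DEF1, DHN1 and the oleosin were highest at 0.14% or more, and HB91 had no steady order.

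DEF2-low cells were also set beside cells with less AL9. AL9 is in the rule, so these levels are a description with no test. SBT1 stood at 633, 648 and 684 CPM in DEF2-low cells, 865, 891 and 921 CPM in DEF2-high cells, 351, 357 and 346 CPM in cells with AL9 of 1% to 4%, and 51.8, 52.1 and 52.1 CPM in cells with AL9 under 1%. The metallothionein Zm00001d008620 had 719, 772 and 735 CPM in DEF2-low cells, 1232, 1219 and 1334 CPM in DEF2-high cells, 417, 387 and 390.2 CPM at AL9 of 1% to 4% and 232, 196 and 191 CPM at AL9 under 1%. Both genes thus ordered DEF2-high, DEF2-low, then cells with less AL9. Zm00001d043413 had 521, 544 and 672 CPM in DEF2-low cells, 206, 214 and 215 CPM in DEF2-high cells and 516, 622 and 644 CPM at AL9 of 1% to 4%. On this gene the DEF2-low range overlapped that of cells with AL9 of 1% to 4%, and the DEF2-high cells stood apart. Cells with AL9 under 1% stood above the DEF2-low cells in each library. DHN1 had 78.5, 72.4 and 68.9 CPM in DEF2-low cells, 142, 161 and 148 CPM in DEF2-high cells, 121, 152 and 129.6 CPM at AL9 of 1% to 4% and 61.8, 59.3 and 55.0 CPM at AL9 under 1%. DEF2-low cells were here below both neighbouring groups and above the cells with AL9 under 1%.

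The 24 AL9-rich cells of 6 DAP held 96126 UMIs from 1 library, so each level has a wide counting interval and no replicate. DEF2 stood at 146 CPM (95% exact Poisson interval 79.6 to 244), within which the DEF2-low values of 7 DAP fall. DEF1 and Zm00001d040390 had 0 UMIs there, which allows up to 31.2 CPM. For Zm00001d043413, 16 UMIs gave 166 CPM (95.1 to 270.3), an interval that the DEF2-high values of 7 DAP lie in and the DEF2-low values lie above. Zm00001d008620 had 2330.3 CPM (2035 to 2656), above all 7 DAP sums. Those UMIs were uneven over cells, since the median 6 DAP cell had 0.104% of its UMIs in the metallothionein list, below the medians of 0.144%, 0.147% and 0.148% in DEF2-low cells of 7 DAP. The oleosin Zm00001d045988 had 20.8 CPM from 2 UMIs (2.52 to 75.2). The 6 DAP cells were therefore low in DEF2 as the rule sets it, but their summed levels of Zm00001d043413, the metallothionein and the oleosin lay outside those of the 7 DAP DEF2-low cells. Their AL9 median of 4.87% was also lower, and they were shallower, with a median of 3672.5 UMIs.

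**Figure D5:**
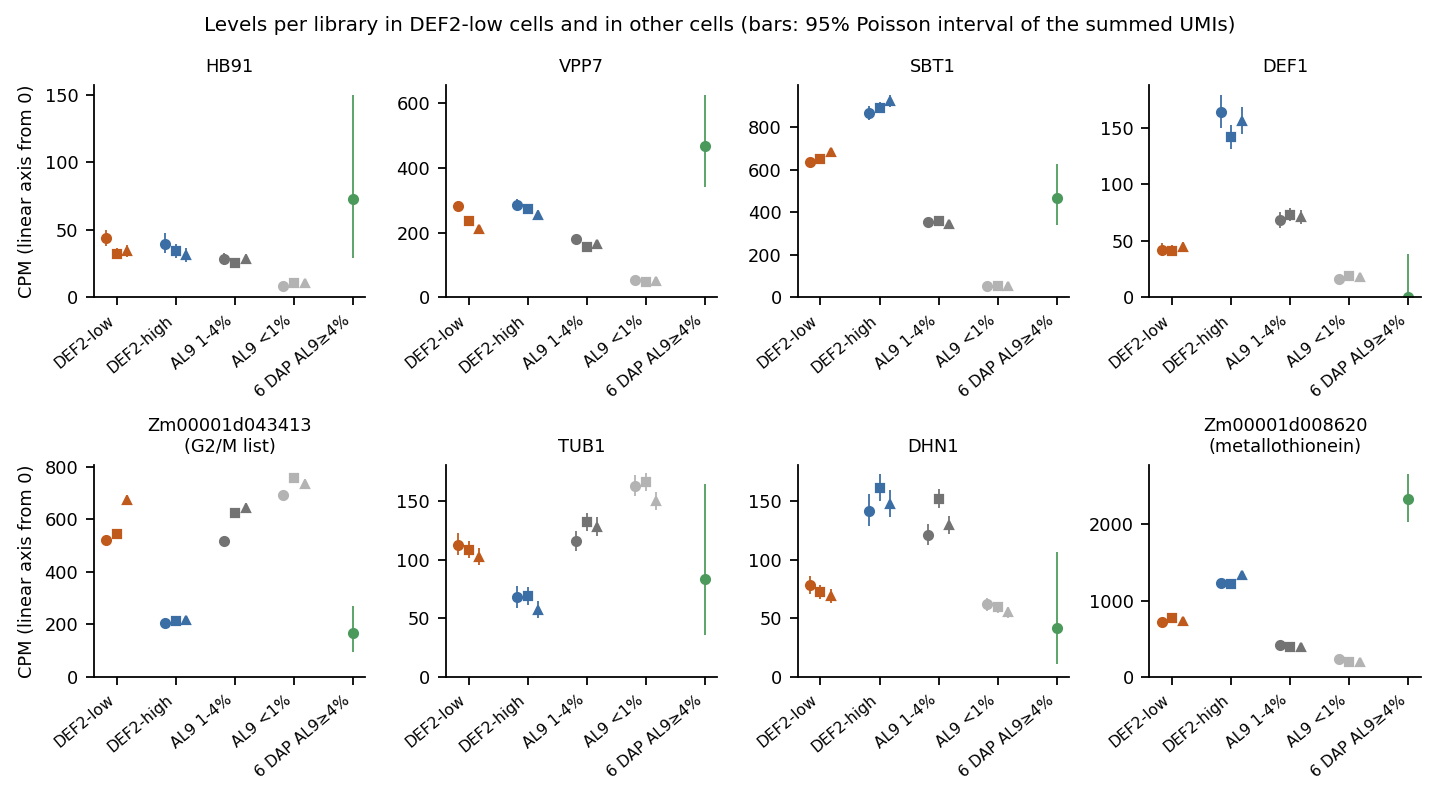
CPM of 8 genes in DEF2-low cells, DEF2-high cells, cells with AL9 of 1% to 4%, cells with AL9 under 1% (3 libraries of 7 DAP each) and the 24 AL9-rich cells of 6 DAP (1 library), on linear axes from 0, with 95% Poisson intervals of the summed UMIs. SBT1 and the metallothionein were lower in DEF2-low than in DEF2-high cells and lower still with less AL9, whereas Zm00001d043413 and TUB1 were lowest in DEF2-high cells among the 7 DAP groups.

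Lists that the study drew from these same libraries give no independent evidence of direction, and are described by counts only. Most of their genes are abundant, and at a mean of 50 CPM or more 552 genes were higher and 550 lower of 2755. Of 202 genes that it lists as higher in aleurone at 7 DAP than at 6 DAP, 99 were lower in DEF2-low cells and 19 higher. Of 160 listed as higher at 6 DAP, 70 were higher in DEF2-low cells and 30 lower. Among genes it lists for single aleurone clusters, cluster 0 had 3 higher and 164 lower of 287, and cluster 3 had 175 higher and 49 lower of 492. Cluster 4 had 3 higher and 44 lower of 98, and cluster 7 had 43 higher and 119 lower of 457.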

How the data were processed

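Single-cell RNA sequencing libraries were made by a 10x 3' droplet method from protoplasts of pooled maize endosperm, 3 libraries at 7 DAP and 1 at 6 DAP. The deposited files hold UMI counts per gene and barcode, not normalized, which the authors made with Cell Ranger per the labels and the study's methods. The lowest barcode in each library had 500 UMIs. The files list 45953 features, and all features with UMIs entered library sizes. None of the 43789 gene model identifiers matched the RefSeq table, so names and annotations came from the study's own gene table. No column was left out.

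Cells were filtered and grouped as described above, with the ratio of natural logarithms of genes and UMIs for complexity. The members and the gene lists were chosen with earlier results of these data known. No doublet caller was run here, and cells above the 95th percentile of UMIs of their library were removed in an alternative. Counts were summed per library and group into 6 sums. Genes were filtered with filterByExpr and tested with edgeR 4.0.16 (quasi-likelihood test, TMM factors, library as block) in R 4.3.3, with Benjamini-Hochberg adjustment over all genes fitted and a threshold of 0.05. Both sums of a library came from the same protoplasts, so the pairing is fixed by construction. CPM values are counts divided by the total of the sum, with no scaling factor, and fold changes use TMM factors. The SE of a log2 fold change was taken from its F statistic. Alternatives used DESeq2 1.42.0, other scalings, other limits of the rule, cells thinned to 3000 UMIs by random draw, and each library left out. Python 3.11.15 with numpy 2.4.6, scipy 1.17.1 and pandas 2.3.3 was used for the remaining steps.

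The fit was tested on simulated data of 14922 genes for this comparison. It recovered 20% of genes changed 1.25-fold, 42% at 1.5-fold, 84% at 2-fold and 94% at 4-fold, and called 8 unchanged genes.

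The text names the genes of the rule and the cell markers, the 10 largest log2 fold changes per direction among called genes that averaged 50 CPM or more and had 1 sign in all 3 libraries, as well as the corresponding annotated genes, and up to 3 such genes per list with at least 5 members tested. Genes named outside this rule are said to be so, or are exceptions within a list, and were chosen after their values were seen. Levels of different genes were not compared.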

Additional observations from a re-analysis of the deposited data

How the results depend on the processing

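With no replicate block, which ignores that both sums come from the same library, 380 genes were higher and 453 lower, and all of these were also called with the block. DESeq2 with the block gave 340 higher and 359 lower, library totals without scaling factors 1679 and 658, an AL9 range of 4% to 8% in both groups 606 and 658, and thinning to 3000 UMIs 380 and 437. Leaving out 1 library gave 559 to 848 higher genes and 567 to 894 lower ones, the fewest without replicate 1. The share of DEF2-low among AL9-rich cells was 49.8%, 49.2% and 49.0% in replicates 1, 2 and 3 with a DEF2 limit of 0.05%, and 69.5%, 67.6% and 68.4% with 0.1%. With AL9 at 6% or more it was 55.3% in replicate 1 and 52.9% in replicate 2. The difference in genes per cell was 262 without thinning and 58.7 at 5000 UMIs. Of 2315 values of named genes under the alternatives, 2112 kept their side of the threshold, 183 fell short of it and 11 newly passed it. The other 9 changed sign in a gene called in the main fit or in the alternative. Changes of sign in genes called in neither were counted among the 2112. With 1 library left out, ESR1 ranged over -0.073 to 2.18 and ESR3 over -0.22 to 2.87, the lowest without replicate 2, and Zm00001d049077, an auxin synthesis gene, was at 0.063 with AL9 of 4% to 8%. After removal of marker-rich cells, chosen after seeing the data, Zm00001d053108 was at -0.16, Zm00001d052759 at -0.026, Zm00001d053785 at -0.25, Zm00001d024659 at -0.39, ESR2 at -0.21 and MEG14 at -0.28 (log2). The cause of these changes was not tested, and the last setting by construction removes the cells that hold most BETL and ESR marker UMIs. The medians of the BETL, ESR, histone, calcium-binding, lipid transfer, heat, transcription factor and some hormone lists changed sign under at least 1 alternative. Those of the G2/M, S-phase, tubulin, ribosomal, dehydrin, oleosin, metallothionein, fermentation, glycolysis, respiration, glutathione, cystatin, ABA response and jasmonate synthesis lists did so under none of the 20. The S-phase median fell furthest with AL9 of 4% to 8%, from 0.16 to 0.048. The organelle limit of 10% removed no cell of either group. Depth limits genes of low level and the 24 cells of 6 DAP, doublets were not called, and 3 libraries with pooled kernels give no measure of variation between plants.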

Other observations

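S-phase genes varied widely between DEF2-low cells. They took medians of 1.09% to 1.16% of the UMIs of DEF2-low cells, against 0.987% to 1.12% in DEF2-high cells. At the 90th percentile the shares were 5.43%, 5.44% and 5.64% in DEF2-low cells, against 3.89%, 4.53% and 5.61% in DEF2-high cells. The upper end was thus apart in replicates 1 and 2 and nearly alike in replicate 3.

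The summed S-phase share was not ordered along DEF2. It was 2.03%, 1.88% and 2.19% of UMIs in cells with no DEF2 UMI, 2.27%, 2.17% and 2.12% between 0.035% and 0.07%, and 1.58%, 1.57% and 1.91% at 0.14% or more. No test was run on these shares.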
